A study of Ovis aries with 115 samples.

Results

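The cervical transcriptome of the Norwegian breeds was compared with that of Belclare in naturally cycling ewes, sampled in the follicular phase without hormonal synchronisation. The comparison took every sample labelled with a natural cycle and the follicular phase from 3 of the 4 breeds. It held 30 of the 115 samples of the series, with 10 ewes of Fur, 10 of Norwegian White Sheep (NWS) and 10 of Belclare, and 1 library per ewe. The tissue was cervix taken post mortem and flash frozen, and polyadenylated RNA was sequenced. Labels give the breeds as FUR, Norwegian and Belclare. Fur and NWS are the high fertility breeds of the study and were sampled in Norway, whereas Belclare is the medium fertility Irish breed. Breed and country therefore cannot be told apart. The ages and parities of the naturally cycling ewes, and any sequencing batch, were not given in the sources used here.

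The cervix of the ewe is a ringed, tight canal through which sperm must pass to reach the uterus. Its wall holds smooth muscle and collagen-rich stroma, and its folded lining is a secretory epithelium that makes mucus, moves salt and water, and meets microbes and leukocytes from the vagina. Oestrogen before ovulation is known to raise mucus secretion and to change the tone and matrix of this wall. The breeds are known to differ in how often frozen-thawed semen placed at the cervix leads to pregnancy, and the question asked here was which cervical genes differ between them in a natural cycle.

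Each library held between 13410148 and 22068609 read counts (median 18013320), so that 3 counts corresponded to 0.169 CPM on average, where CPM is the read count scaled to library size. Levels are given in CPM scaled over the natural follicular ewes, as the lowest, median and highest ewe of a breed, and log2 fold changes are given ± their SE over 20 Norwegian and 10 Belclare ewes. Bulk tissue gives the sum over its cell types, and fewer cells of a type cannot be told apart from less RNA per cell. Marker genes of cell classes were summed in each ewe, and they cannot tell the cervix from other tissues that hold the same cell types. All 6 epithelial markers were detected, and their summed level lay between 1430 and 2874 CPM in Belclare (median 2210), between 789 and 1495 in Fur (median 1115) and between 726 and 1666 in NWS (median 1212). The sum of 5 muscle markers ranged from 72.8 to 6388 CPM in Belclare with a median of 559.9, from 1614 to 7448 in Fur (median 4904) and from 1257 to 21720 in NWS (median 5409). These markers were ACTG2, DES, ACTC1, ASB2 and HRC, not all of them particular to smooth muscle. Most of the sum came from ACTG2 and DES, so it repeats the values of these genes given below. The muscle sum of Suffolk, the other Irish breed, ranged from 70.1 to 5988 CPM (median 476) in its 8 naturally cycling ewes. The Norwegian medians were thus above Belclare for muscle and below it for epithelium. Of the markers, 4 of 5 for muscle were higher and 5 of 6 for epithelium lower by the test used below. The study had listed these 4 muscle markers as lower in Suffolk than in Fur or NWS, in synchronised ewes. Their direction is thus not independent evidence. The sums of leukocyte (median 74.7, 54.5 and 46.04 CPM in Belclare, Fur and NWS) and plasma and B cell markers (1529, 728 and 594) overlapped between the breeds. So did those of fibroblast (1534, 1240 and 1472) and endothelial markers (949, 610 and 747), and the muscle and epithelial sums. Without regard to fold, 2 of 4 endothelial, 2 of 5 leukocyte, 1 of 5 plasma and B cell and 1 of 4 fibroblast markers passed at lower expression. The fibroblast marker PI16 passed at higher expression.

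Several libraries stood apart. NWS 5 had by far the most muscle RNA, with 21720 CPM over the muscle markers, and 744 CPM over the epithelial markers. Belclare 2 and Belclare 4, with 6388 and 3322 CPM, were the only Belclare ewes within the muscle range of the Norwegian ewes. NWS 4 and NWS 10 had the level of the mitochondrial gene COX-1 that marked Fur rather than NWS, which is described at the end. Values without these libraries are given where they change a result. The fit was also repeated with the muscle level of each ewe (mean log2 CPM of ACTG2 and DES), or the epithelial level (log2 CPM of CDH1, the epithelial cadherin), as a covariate. This muscle level ran from 5.13 to 11.6 in Belclare and from 9.07 to 13.4 in the Norwegian ewes. Only Belclare 2 (11.6) and Belclare 4 (10.6) overlapped the Norwegian ewes. Breed and muscle level thus largely coincided, and NWS 5 stayed in these fits at 13.4. A call lost with the muscle level therefore cannot be told apart from a loss of power, and whether muscle content explained it was not tested.

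Ewe breed was associated with widespread differences in gene expression. Of 14685 genes tested, 2290 (15.6%) were differentially expressed genes (DEGs) between the Norwegian breeds and Belclare, with an adjusted p under 0.05 and a fold change above 1.5 in edgeR's quasi-likelihood test. Expression was higher in the Norwegian breeds in 1371 of them (9.34% of genes tested) and lower in 919 (6.26%). The median DEG differed by 1.81-fold. Without regard to fold, 5286 genes passed (36%), 2799 at higher (19.1%) and 2487 at lower expression (16.9%). Against Belclare, Fur had 2169 DEGs (14.8%), 1238 of them higher (8.43%) and 931 lower (6.34%), and NWS had 2204 (15%), 1407 higher (9.58%) and 797 lower (5.43%). Both of these contrasts use the same Belclare ewes. The direct contrast of NWS with Fur had 7 DEGs (0.0477%), 2102 genes at an unadjusted p under 0.05, and 43 DEGs by DESeq2's Wald test. With the muscle level in the fit, the Norwegian breeds differed from Belclare in 1183 genes, of which 625 were among the 2290. Under the same covariate, Fur had 1933 DEGs and NWS had 183. Without Belclare 2, Belclare 4 and NWS 5 there were 2231 DEGs, 2043 of them shared.

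**Figure D1:**
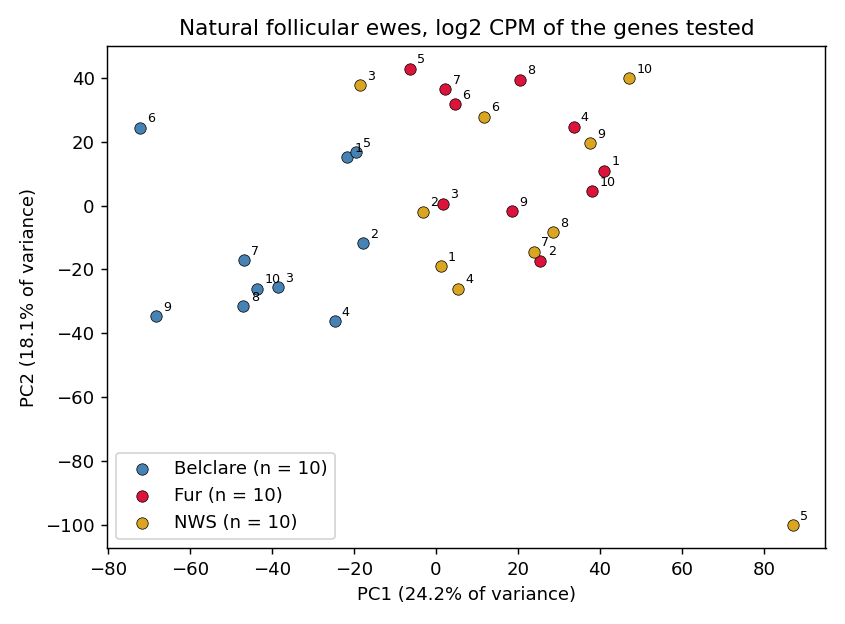
Principal components of log2 CPM over the genes tested, with PC1 on the horizontal and PC2 on the vertical axis and 1 numbered point per ewe. The 10 Belclare ewes lie between -72.2 and -17.8 on PC1 and the 10 Fur ewes between -6.32 and 41.04, and NWS spans -18.5 to 87.03, with NWS 5 at the far right.

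The first principal component held 24.2% of the variance and the second 18.1%. On the first, every Fur ewe lay above every Belclare ewe, and NWS met the edge of the Belclare range. Genes with no overlap at all between the Norwegian breeds and Belclare were few. In 32 genes (0.218%) all 20 Norwegian ewes were above every Belclare ewe, and in 50 (0.34%) all 20 were below.

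Gene names were used for 1318 of the tested identifiers. Nearly all of these names came from the part of the study's tables that was used here, which holds genes higher in Suffolk than in Fur in other, synchronised ewes. That source favours genes that are lower in Norwegian breeds. The study's short tables added genes picked as lower in Suffolk than in Fur or NWS, and these favour higher expression in the Norwegian breeds. Of the named genes, 17 were DEGs with higher expression (1.29%) and 384 were DEGs with lower expression (29.1%). Of the 13367 unnamed genes, 1354 were higher (10.1%) and 535 lower (4.002%). Most of the genes with higher expression in the Norwegian breeds are thus known here by identifier only, and the direction of the gene lists below is not independent evidence. The count of each list compares with the 29.1% of all named genes. The median log2 fold change was 0.0037 over all genes tested and -0.43 over the named genes.

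Smooth muscle genes were higher in the Norwegian breeds. Of 25 smooth muscle genes listed, 8 had a name and were tested. Of these, 6 were DEGs with higher expression, 1 was a DEG with lower expression and 1 passed no test. The median log2 fold change was 2.30. All 6 higher genes were in the study's short tables as lower in Suffolk than in Fur or NWS. Their count is thus not independent evidence. PPP1R12B and HRC were not in those tables. ACTG2 (ENSOARG00000012108), the smooth muscle gamma actin of visceral organs, ranged from 26.9 to 2640 CPM in Belclare with a median of 213, from 721 to 3843 in Fur (median 2116) and from 323.3 to 9040 in NWS (median 2068). The difference was 4.43-fold (log2 fold change 2.15 ± 0.59, adjusted p = 0.00525), and 6 of 20 Norwegian ewes lay above every Belclare ewe. Both Belclare ewes of high muscle RNA reached the Norwegian range, and the other 8 were between 26.9 and 356 CPM. DES (ENSOARG00000020185), which encodes the intermediate filament desmin of muscle, was between 40.96 and 3720 CPM (median 283) in Belclare, 874 and 4683 (median 2348) in Fur and 919 and 12590 (median 2960) in NWS, 4.11-fold higher (log2 fold change 2.04 ± 0.55, adjusted p = 0.00482). The level of PCP4 (ENSOARG00000009912), a modulator of calmodulin, was 0 to 20.7 CPM in Belclare (median 0.394), 9.24 to 45.6 in Fur (median 24.4) and 12.9 to 253 in NWS (median 23.8). The 10.3-fold difference in PCP4 (log2 fold change 3.36 ± 0.80, adjusted p = 0.0017) was set against 8 Belclare ewes at or below 0.781 CPM, while Belclare 2 and 4 had 20.7 and 10.6 CPM.

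ASB2 (ENSOARG00000014168), the substrate adaptor of a ubiquitin ligase that degrades filamins in muscle, had the smallest p of the list. It ranged from 0.786 to 17.1 CPM in Belclare with a median of 3.25, from 9.74 to 44.7 in Fur (median 24.7) and from 11.8 to 51.6 in NWS (median 30.96), and 16 of 20 Norwegian ewes exceeded every Belclare ewe (5.45-fold, log2 fold change 2.45 ± 0.40, adjusted p = 3.41e-05). Cardiac alpha actin, ACTC1, differed 6.195-fold (log2 fold change 2.63 ± 0.71, adjusted p = 0.00456) and the muscle membrane protein POPDC2 5.64-fold (log2 fold change 2.50 ± 0.63, adjusted p = 0.00288). In contrast, PPP1R12B (ENSOARG00000001715), a regulatory subunit of myosin phosphatase, was lower, at 3.33 to 5.95 CPM in Belclare, 2.15 to 3.89 in Fur and 1.24 to 3.91 in NWS (log2 fold change -0.64 ± 0.14, adjusted p = 0.00051). HRC, a calcium-binding protein of the sarcoplasmic reticulum, had a log2 fold change of 0.44 (adjusted p = 0.0953). Leaving out Belclare 2 raised the log2 fold change of ACTC1 to 3.64, ACTG2 to 2.96, DES to 2.79, PCP4 to 4.60 and POPDC2 to 3.22. Without both Belclare 2 and Belclare 4 these values were 4.05, 3.63, 3.61, 6.77 and 4.59, and the list median was 3.62. With the muscle level in the fit, which is built from ACTG2 and DES themselves, ASB2 (1.01, adjusted p = 0.0173) and PCP4 (1.55, adjusted p = 0.0152) remained higher, whereas ACTC1 (-0.050, adjusted p = 0.963) and POPDC2 (0.33, adjusted p = 0.562) did not pass. The list then had 2 DEGs with higher expression, and with CDH1 as the covariate it had 2 as well. Under the CDH1 covariate ACTG2 (1.14, adjusted p = 0.140), DES (1.17, adjusted p = 0.102), ACTC1 (1.27, adjusted p = 0.154) and POPDC2 (1.67, adjusted p = 0.0596) lost their calls.

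**Figure D2:**
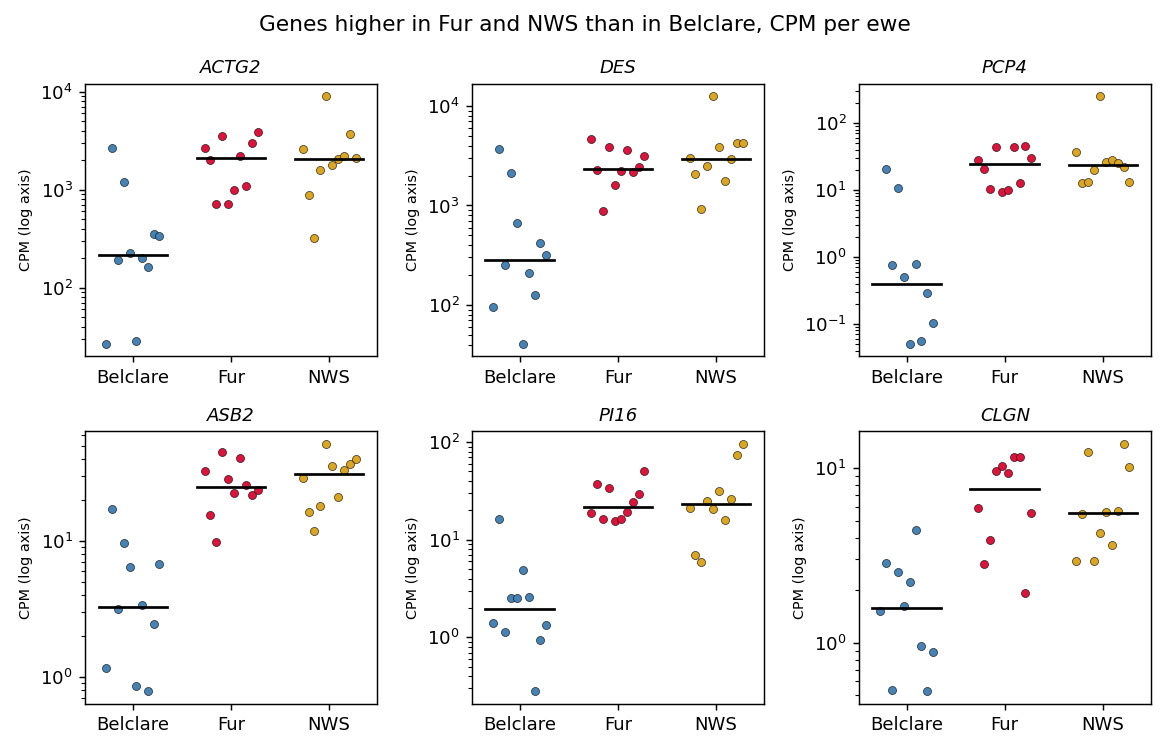
CPM per ewe on a log axis for 6 genes that were higher in Fur and NWS than in Belclare, with 10 ewes per breed and a line at each median. Belclare 2 and Belclare 4 reach the Norwegian levels of ACTG2, DES and PCP4, and an ewe at 0 CPM has no point on the log axis.

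A further group of named genes, not on the muscle list, was higher in the Norwegian breeds. Among them, PI16 and PNCK were also in the study's short tables as lower in Suffolk than in Fur or NWS. PI16 (ENSOARG00000014123), a peptidase inhibitor that marks a class of fibroblasts, ranged from 0.281 to 16.3 CPM in Belclare with a median of 1.97, from 15.6 to 50.3 in Fur (median 21.8) and from 5.91 to 96.03 in NWS (median 23.2), and 14 of 20 Norwegian ewes were above every Belclare ewe (8.62-fold, log2 fold change 3.11 ± 0.52, adjusted p = 4.36e-05). Its log2 fold change was 3.89 without Belclare 2 and 2.11 with the muscle level in the fit (adjusted p = 0.0265). CLGN (ENSOARG00000012717), the endoplasmic reticulum chaperone calmegin known from sperm-egg interaction, was between 0.527 and 4.45 CPM (median 1.57) in Belclare, 1.92 and 11.6 (median 7.63) in Fur and 2.94 and 13.8 (median 5.56) in NWS. It was 3.86-fold higher (log2 fold change 1.95 ± 0.36, adjusted p = 0.000152), by 1.93 on the log2 scale with the muscle level in the fit (adjusted p = 0.0133), and 13 Norwegian ewes lay above all Belclare ewes. The calcium and calmodulin dependent kinase PNCK was near the detection limit in Belclare (median 0.147 CPM, highest 3.49) and had medians of 4.28 in Fur and 4.85 in NWS (log2 fold change 2.89 ± 0.64, adjusted p = 0.000807). Belclare 2 and Belclare 4, the ewes of high muscle RNA, had 3.49 and 2.46 CPM of PNCK, and the other 8 Belclare ewes had at most 0.208. The log2 fold change of PNCK was 3.83 without Belclare 2, 5.62 without both ewes, and 1.07 with the muscle level in the fit (adjusted p = 0.0233). BRINP3, known as a neural gene inducible by BMP and retinoic acid, had medians of 0.495, 3.102 and 3.37 CPM in Belclare, Fur and NWS (log2 fold change 2.84 ± 0.54, adjusted p = 0.000182), and the call was lost with the muscle level in the fit (adjusted p = 0.138).

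Smaller increases were found for the secreted protein C1QTNF6 (log2 fold change 1.08 ± 0.22, adjusted p = 0.000454), for MLKL, the effector of necroptosis (log2 fold change 0.77 ± 0.16, adjusted p = 0.000446), and for SNAP25, a component of the membrane fusion machinery (log2 fold change 0.72 ± 0.16, adjusted p = 0.000658). These 3 genes kept their calls with the muscle level in the fit (adjusted p = 0.0292, 0.0298 and 0.0184). The unnamed genes of smallest p separated the Norwegian breeds from Belclare almost completely. ENSOARG00000012184 ranged from 0.415 to 2.74 CPM in Belclare with a median of 1.105, from 6.59 to 13.02 in Fur (median 9.09) and from 3.93 to 22.7 in NWS (median 10.96), with no overlap (8.38-fold, log2 fold change 3.07 ± 0.30, adjusted p = 2.36e-07). ENSOARG00000019971 was between 2.54 and 10.6 CPM (median 3.83) in Belclare, 14.8 and 34.97 (median 23.3) in Fur and 8.96 and 37.4 (median 23.2) in NWS, and 19 of 20 Norwegian ewes exceeded every Belclare ewe (log2 fold change 2.35 ± 0.24, adjusted p = 2.72e-07).

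Genes of the epithelial lining were lower in the Norwegian breeds. Of 34 tested genes of epithelial junctions and polarity, 18 were DEGs with lower expression, against 29.1% of all named genes, and none was higher. A further 7 passed the test below the fold threshold, and the list median was -0.70. ST14 (ENSOARG00000014848), the membrane protease matriptase that acts at the surface of epithelia, ranged from 284 to 609 CPM in Belclare with a median of 384, from 137 to 224 in Fur (median 195) and from 100.5 to 243 in NWS (median 201). The breeds did not overlap with Belclare, and ST14 was 2.14-fold lower (-1.10 ± 0.13, adjusted p = 8.76e-07). LLGL2 (ENSOARG00000010325), a polarity protein of the basolateral membrane, was between 150.2 and 242 CPM (median 184) in Belclare, 65.96 and 122 (median 97.02) in Fur and 47.2 and 142 (median 102) in NWS, again without overlap (-0.95 ± 0.12, adjusted p = 3.04e-06). LSR, a protein of tricellular junctions, was 1.51-fold lower (-0.59 ± 0.076, adjusted p = 2.84e-06), with 19 of 20 Norwegian ewes below every Belclare ewe. All 3 remained lower with the muscle level in the fit (adjusted p = 0.00703, 0.00795 and 0.0193) and with CDH1 as a covariate (adjusted p = 9.66e-05, 0.000258 and 0.000211). Over the list, however, the muscle covariate gave 4 DEGs and a median of -0.27, and the CDH1 covariate 8 DEGs with lower and 1 with higher expression. The epithelial markers fell in the same ewes, and their part in these counts was not tested beyond these covariates.

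Transport of ions and water followed the same direction. Of 28 tested genes, 16 were DEGs with lower expression, against 29.1% of all named genes, and none was higher (median -0.74). CLCN3 (ENSOARG00000015494), a chloride and proton exchanger of vesicles, was between 127 and 196 CPM (median 136) in Belclare, 74.3 and 105 (median 87.6) in Fur and 48.5 and 106 (median 82.1) in NWS and did not overlap (-0.76 ± 0.088, adjusted p = 8.76e-07). SCNN1A (ENSOARG00000008446), the alpha subunit of the epithelial sodium channel, ranged from 123 to 220 CPM in Belclare with a median of 161, from 50.3 to 115 in Fur (median 63.7) and from 21.04 to 101 in NWS (median 75.5), and all 20 Norwegian ewes lay below Belclare (2.26-fold, -1.17 ± 0.19, adjusted p = 2.78e-05). Both passed the test with the muscle level in the fit (adjusted p = 0.00819 and 0.0131), although the list then had 2 DEGs. SCNN1D, the delta subunit of the channel, was lower by a log2 fold change of -2.59 ± 0.47, adjusted p = 0.000116, but Belclare 1 stood at 33.9 CPM against a median of 1.69. Without Belclare 1 the value for SCNN1D was -1.10 (adjusted p = 0.00376), and with the muscle level it was 0.10 (adjusted p = 0.937). AQP9, a water and glycerol channel, did not pass (log2 fold change -0.85 ± 0.62, adjusted p = 0.294).

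Mucins and the genes of mucus secretion were lower as well. Of 20 tested genes, 12 were DEGs with lower expression, against 29.1% of all named genes. None was a DEG with higher expression (median -0.70). MUC1 (ENSOARG00000003788), a mucin anchored in the cell membrane, ranged from 549.6 to 1519 CPM in Belclare with a median of 1086, from 260 to 668 in Fur (median 390.3) and from 182 to 820.1 in NWS (median 502), 2.28-fold lower (-1.19 ± 0.19, adjusted p = 2.35e-05), and 15 of 20 Norwegian ewes were below every Belclare ewe. Another membrane mucin, MUC16 (ENSOARG00000013067), was between 839 and 3419 CPM (median 1805) in Belclare, 354 and 1308 (median 748) in Fur and 144 and 1032 (median 596) in NWS, 2.65-fold lower (-1.41 ± 0.22, adjusted p = 2.77e-05). STXBP2 (ENSOARG00000002236), which serves granule release in secretory cells, had medians of 70.9, 46.5 and 46.9 CPM in Belclare, Fur and NWS (-0.60 ± 0.071, adjusted p = 1.01e-06). The gel-forming mucin MUC5AC (ENSOARG00000009361) was far more variable, between 2.93 and 77.9 CPM (median 12.2) in Belclare, 1.49 and 7.84 (median 2.88) in Fur and 0.764 and 17.3 (median 5.75) in NWS. It was 4.94-fold lower (-2.31 ± 0.42, adjusted p = 0.000114), 8 Norwegian ewes lay below every Belclare ewe, and with the muscle level in the fit the call was lost (-1.03, adjusted p = 0.155). The list had 7 DEGs with lower expression under the muscle covariate and 7 under the CDH1 covariate.

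**Figure D3:**
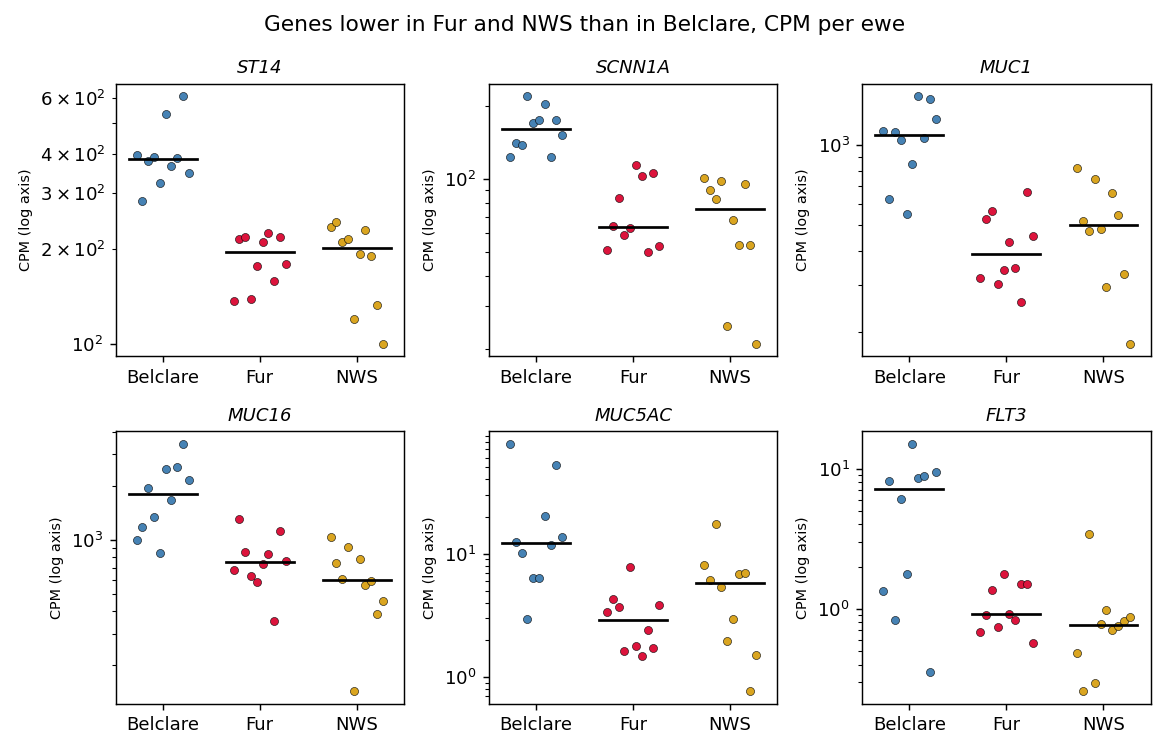
CPM per ewe on a log axis for 6 genes that were lower in Fur and NWS than in Belclare, with 10 ewes per breed and a line at each median. ST14 and SCNN1A do not overlap between Belclare and the Norwegian ewes, whereas the spread of MUC5AC within Belclare runs from 2.93 to 77.9 CPM.

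The secretoglobin SCGB2A1 (ENSOARG00000014805), a small protein of reproductive tract secretions, ranged from 3.26 to 40.2 CPM in Belclare with a median of 13.7, from 0.613 to 7.803 in Fur (median 1.67) and from 0 to 10.2 in NWS (median 0.937). It was 7.51-fold lower (-2.91 ± 0.53, adjusted p = 0.00011), 16 of 20 Norwegian ewes were below every Belclare ewe, and the difference was larger with the muscle level in the fit (-4.26, adjusted p = 0.00215). ADAM7, an metallopeptidase-like membrane protein known from the epididymis, had medians of 1.97, 0.573 and 0.617 CPM (-1.78 ± 0.33, adjusted p = 0.000148), and lost its call with the muscle level (adjusted p = 0.0724). The unnamed gene ENSOARG00000016098 was lower by a log2 fold change of -3.00 ± 0.48, adjusted p = 2.86e-05. Its Belclare level rested on 2 ewes, Belclare 6 at 283 and Belclare 1 at 132 CPM, while the other 8 had between 9.56 and 18.5. Without Belclare 6 the log2 fold change was -1.97 (adjusted p = 0.000317), and with the muscle level it was -0.29 (adjusted p = 0.708).

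The DEGs among the immune lists were lower in the Norwegian breeds. Among 45 tested receptors and signalling genes of leukocytes, 11 were DEGs with lower expression, against 29.1% of all named genes, and none was higher (median -0.46). FLT3 (ENSOARG00000012379), the cytokine receptor of dendritic cells and their precursors, ranged from 0.351 to 15.1 CPM in Belclare with a median of 7.14, from 0.566 to 1.76 in Fur (median 0.917) and from 0.258 to 3.44 in NWS (median 0.762), 6.001-fold lower (-2.59 ± 0.40, adjusted p = 2.08e-05). Its Belclare values were widely spread, with Belclare 9, 3, 1 and 5 at or below 1.77 CPM and the other 6 between 6.06 and 15.1 CPM. IL17RA (ENSOARG00000013218), the receptor subunit for interleukin 17 on epithelium and stroma, was between 66.01 and 102 CPM (median 75.3) in Belclare, 35.8 and 55.5 (median 47.3) in Fur and 23.8 and 62.5 (median 48.04) in NWS, without overlap (-0.72 ± 0.097, adjusted p = 4.53e-06). ICOSLG, a costimulatory ligand, had a log2 fold change of -0.83 ± 0.14, adjusted p = 5.64e-05, and lost its call with the muscle level in the fit (adjusted p = 0.0989). Under that covariate the list had 1 DEG. The leukocyte markers themselves gave 1 DEG of 5, ITGB2.

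In the list of complement, acute phase and plasma proteins, 8 of 24 tested genes were DEGs with lower expression and none was higher (median -0.53), a share near the 29.1% of all named genes. The acute phase protein SAA1 is listed under 2 identifiers, which may share reads. ENSOARG00000009865 ranged from 1.34 to 21.3 CPM in Belclare with a median of 8.81, from 0.0471 to 2.44 in Fur (median 0.594) and from 0 to 2.96 in NWS (median 0.709) (10.5-fold lower, -3.39 ± 0.47, adjusted p = 6.09e-06), with 13 Norwegian ewes below every Belclare ewe. ENSOARG00000009847 was between 2.46 and 183 CPM (median 17.03) in Belclare, 0.518 and 8.43 (median 4.85) in Fur and 0.963 and 14.3 (median 3.79) in NWS (-2.85 ± 0.48, adjusted p = 5.50e-05). Belclare 9, at 183 CPM, raised this second SAA1 value, which was -1.93 without it (adjusted p = 0.000809). CFHR3 (ENSOARG00000002493), a relative of complement factor H, was 2.24-fold lower (-1.16 ± 0.20, adjusted p = 5.25e-05), and -1.47 with the muscle level in the fit (adjusted p = 0.00383). Of 27 interferon response genes, 1 was a DEG with lower expression and 9 passed the test at lower expression without regard to fold, with a median of -0.25. This share is far below that of all named genes, and the direction of its DEGs turned with either covariate. With the muscle level in the fit 3 interferon genes were DEGs with higher and none with lower expression (median 0.24), and with the CDH1 covariate 2 were higher and none lower (median -0.047). IFITM3, a restriction factor of virus entry, had a log2 fold change of -0.52 ± 0.14, adjusted p = 0.00461, the sensor adaptor TMEM173 (STING) -0.57 ± 0.11, adjusted p = 0.000193, and TRANK1 -0.54 ± 0.15, adjusted p = 0.00529, and none of the 3 passed with the muscle level in the fit (adjusted p = 0.416, 0.119 and 0.402). MICB, CD177 and PADI2 did not pass (adjusted p = 0.104, 0.295 and 0.0509). PADI2 passed with DESeq2's size factors (adjusted p = 0.0474) and Wald test (0.0326), with at least 10 counts in every library (0.0492) and without Belclare 2 and 4 (0.0393), and MICB with the CDH1 covariate (0.81, adjusted p = 0.0458).

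Among genes of steroid hormone and oestrogen response, 9 of 22 were DEGs with lower expression, against 29.1% of all named genes. None was higher, and the list median was -0.60. FKBP5 (ENSOARG00000012272), a steroid-inducible co-chaperone of the glucocorticoid and progesterone receptors, ranged from 93.5 to 248 CPM in Belclare with a median of 148, from 33.5 to 149.5 in Fur (median 97.3) and from 13.3 to 128 in NWS (median 48.4), 2.27-fold lower (-1.18 ± 0.26, adjusted p = 0.00086). PGRMC1 (ENSOARG00000016375), a haem-binding membrane protein linked to progesterone responses, passed the test below the fold threshold (-0.54 ± 0.084, adjusted p = 2.37e-05). PTGS1 (ENSOARG00000014116), the cyclooxygenase 1 that begins prostaglandin synthesis, was between 19.5 and 58.4 CPM (median 36.2) in Belclare, 10.7 and 37.2 (median 15.3) in Fur and 10.6 and 37.99 (median 23.3) in NWS, 1.85-fold lower (-0.89 ± 0.19, adjusted p = 0.000506), and 10 of 20 Norwegian ewes were below every Belclare ewe. Of these 3, PGRMC1 passed with the muscle level in the fit (adjusted p = 0.0247, against 0.0679 for FKBP5 and 0.0967 for PTGS1), and the list then had no DEG. With the DESeq2 Wald test the list had 11 DEGs.

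Lipid genes included 6 DEGs with lower expression of 23 tested (median -0.42), which is no larger a share than that of all named genes. The endocytic receptor LRP1 was 1.79-fold lower (-0.84 ± 0.13, adjusted p = 2.05e-05), and SPTLC2, a subunit of serine palmitoyltransferase, passed below the fold threshold (-0.54 ± 0.11, adjusted p = 0.000246) and did not pass with the muscle level in the fit (adjusted p = 0.243).

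Extracellular matrix genes gave 6 DEGs with lower and 1, PI16, with higher expression among 36 tested (median -0.25). The share with lower expression was below the 29.1% of all named genes. MMP15, a membrane-anchored matrix metalloproteinase, passed below the fold threshold (-0.57 ± 0.10, adjusted p = 8.48e-05), and the secreted protein CRISPLD2 was 1.77-fold lower (-0.82 ± 0.20, adjusted p = 0.0021). Neither passed with the muscle level in the fit (adjusted p = 0.0906 and 0.175). Lysosomal genes differed by small amounts. Of 45 tested, 18 passed the test at lower expression and 1 at higher expression, and 1 in each direction was a DEG (median -0.24). This share of DEGs with lower expression was also far below that of all named genes. The vesicle proton pump subunit ATP6AP1 (-0.35 ± 0.056, adjusted p = 3.14e-05) and the membrane protein LAMP1 (-0.38 ± 0.063, adjusted p = 4.15e-05) were lower, and with the muscle level in the fit the adjusted p was 0.0297 and 0.0608.

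In Wnt, Notch and Hedgehog signalling, 7 of 23 genes were DEGs with lower expression (median -0.44), close to the share and median of all named genes, and 1 was a DEG with the muscle level in the fit. They included the ligand WNT10B (-0.60 ± 0.097, adjusted p = 3.16e-05), the receptor LRP4 (-0.77 ± 0.13, adjusted p = 5.71e-05) and the Dickkopf receptor KREMEN1 (-0.79 ± 0.16, adjusted p = 0.000374), and of these WNT10B passed with the muscle level in the fit (adjusted p = 0.00533). Developmental transcription factors gave 4 DEGs with lower expression of 27 (median -0.38), a smaller share than that of all named genes. With the muscle covariate 1 was a DEG. EYA2 (ENSOARG00000009276), a transcriptional coactivator and phosphatase, ranged from 112 to 201 CPM in Belclare with a median of 123, from 47.1 to 93.2 in Fur (median 68.3) and from 24.3 to 85.1 in NWS (median 63.1), without overlap (-1.12 ± 0.14, adjusted p = 1.64e-06). PAX2 (-0.73 ± 0.16, adjusted p = 0.000849), a factor of urogenital development, was also lower, and did not pass with the muscle level (adjusted p = 0.272). FOXC1 did not differ detectably (log2 fold change -0.12 ± 0.43, adjusted p = 0.856).

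Genes of other roles were among the named DEGs with the smallest p and lower expression. CUL4A (ENSOARG00000008074), the scaffold of a ubiquitin ligase, ranged from 198 to 297 CPM in Belclare with a median of 222, from 126 to 164 in Fur (median 145) and from 125 to 190.3 in NWS (median 162) (-0.59 ± 0.064, adjusted p = 5.83e-07). The transcription factor DEAF1 was between 54.7 and 77.8 CPM (median 63.5) in Belclare, 31.1 and 49.9 (median 42.98) in Fur and 32.1 and 49.5 (median 37.4) in NWS (-0.68 ± 0.081, adjusted p = 9.75e-07). The zinc finger gene ZNF76 (-0.60 ± 0.07, adjusted p = 9.49e-07) and the membrane protein gene C1orf210 (-0.85 ± 0.098, adjusted p = 8.76e-07) were also lower. In these 4 genes all 20 Norwegian ewes lay below all 10 Belclare ewes, and each passed with the muscle level in the fit (adjusted p between 0.00255 and 0.0084). Of the 50 genes with such a separation, 23 were named. The unnamed genes of smallest p with lower expression were ENSOARG00000005712 (-1.23 ± 0.13, adjusted p = 3.26e-07), with Belclare at 12.5 to 20.7 CPM against 4.37 to 8.08 in Fur and 5.43 to 11.8 in NWS, and ENSOARG00000015148 (-0.72 ± 0.075, adjusted p = 3.73e-07). Of the 32 genes with all Norwegian ewes above Belclare, none had a name.

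The mitochondrial gene COX-1 (ENSOARG00000000016), which encodes subunit 1 of cytochrome c oxidase and is distinct from PTGS1, had the largest log2 difference of any DEG between Fur and Belclare and also differed between the Norwegian breeds. It lay between 2002 and 3076 CPM in Belclare and between 26.6 and 40.3 CPM in Fur, a difference of -6.22 ± 0.52 on the log2 scale (adjusted p = 8.04e-09). NWS did not form 1 range. NWS 4 and NWS 10 had 37.5 and 31.3 CPM, within the Fur range, NWS 1 and NWS 6 had 789.9 and 921, and the other 6 lay between 1412 and 2515. NWS as a group had -0.91 against Belclare (adjusted p = 0.101) and 5.31 ± 0.50, adjusted p = 1.36e-07 against Fur. COX-1 was the only named gene of the 7 DEGs between NWS and Fur. Of the 6 others, ENSOARG00000014817 ranged from 27.2 to 75.8 CPM in Fur and from 22.7 to 33.1 in NWS (log2 fold change -0.92 ± 0.14, adjusted p = 0.00172), and ENSOARG00000009959 from 3.05 to 16.5 in Fur and from 0.782 to 2.75 in NWS (-2.34 ± 0.36, adjusted p = 0.00172). The levels of these 2 identifiers were scaled over the ewes of both follicular phases.

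**Figure D4:**
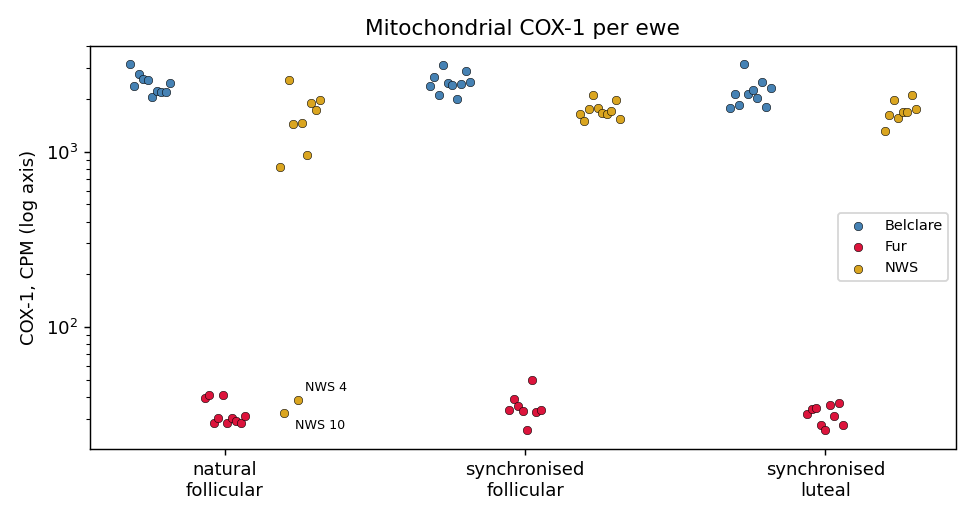
COX-1 in CPM per ewe on a log axis for Belclare, Fur and NWS in the natural follicular, synchronised follicular and synchronised luteal phase, scaled over all these ewes. Fur stays between 25.8 and 50.0 CPM in all 3 states, and NWS 4 and NWS 10 are the only NWS ewes at that level.

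In other ewes the breeds were fully separated for COX-1. Synchronised NWS ewes ranged from 1499 to 2100 CPM at the follicular phase (n = 10) and from 1313 to 2117 at the luteal phase (n = 8), with Fur between 25.8 and 50.0 and between 25.8 and 36.8 CPM. No other gene separated NWS from Fur without overlap in both of these states. The breed labels of NWS 4 and NWS 10 could thus not be checked on further genes chosen in other ewes. ENSOARG00000009959, which was called with these labels, had every natural NWS ewe, NWS 4 and NWS 10 included, below every natural Fur ewe. In the synchronised follicular ewes it overlapped, at 0.802 to 13.5 CPM in Fur and 0.484 to 4.27 in NWS. Whether the 2 labels are right was not tested. Leaving out both gave 2201 DEGs for the Norwegian breeds, 2015 for NWS and 5 between NWS and Fur. The deposited counts hold uniquely mapped pairs with a limited number of mismatches to the reference, and whether sequence differences in the mitochondrial genome change the COX-1 count was not tested. MT-ND6, the other named mitochondrial gene, had medians of 10.9, 7.03 and 6.501 CPM in Belclare, Fur and NWS (log2 fold change -0.43 ± 0.21, adjusted p = 0.103), and passed without NWS 5 (-0.54, adjusted p = 0.0154).

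The same contrast was then read in ewes that had not entered the comparison. The synchronised follicular ewes are those that the study compared with Suffolk, and nearly all gene names came from that comparison. Named genes and lists read in these ewes are thus not independent evidence, whereas counts over all genes do not rest on names. In 28 synchronised ewes at the follicular phase (10 Belclare, 8 Fur and 10 NWS) there were 2243 DEGs (15.3%), 1041 higher (7.09%) and 1202 lower (8.19%), and in 27 ewes at the luteal phase (10, 9 and 8) there were 2321 (15.8%), 1307 higher (8.9%) and 1014 lower (6.91%). Of the 2290 DEGs of the natural cycle, 1077 were DEGs in the same direction in the synchronised follicular ewes (47.03% of the natural and 48.02% of the synchronised list), and 11 were DEGs in the opposite direction. At the luteal phase 1301 were shared in direction (56.8% and 56.1%) and 17 were opposite. The sign was the same for 93.97% of the natural DEGs in the synchronised follicular and for 95.02% in the luteal ewes. The same share over all genes tested is not given here. The median log2 difference of the natural DEGs, in the direction of the natural cycle, was 0.64 and 0.71 in these states, against 0.85 in the natural cycle, where the genes were chosen.

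In the natural follicular phase 59.9% of the DEGs were higher in the Norwegian breeds, and in the synchronised follicular phase 46.4%. The epithelial, mucin and transport lists were lower in both, with 26 of 34, 10 of 20 and 18 of 28 genes called as DEGs with lower expression in synchronised ewes, against 592 of 1318 named genes (44.9%), and 1 transport gene as higher. The mucin share was thus close to that of all named genes. Of the 8 muscle genes, 5 were DEGs with higher and 2 with lower expression in the synchronised follicular ewes, and 6 were higher and none lower in the luteal ewes. ASB2 had log2 fold changes of 2.36 (adjusted p = 0.00195) in the synchronised follicular ewes and 2.28 (adjusted p = 0.000626) in the luteal ewes, PCP4 of 3.23 (adjusted p = 0.00482) in the synchronised follicular ewes and 2.45 (adjusted p = 0.00151) in the luteal ewes, and FLT3 of -2.72 (adjusted p = 7.14e-06) in the synchronised follicular ewes and -2.89 (adjusted p = 2.94e-05) in the luteal ewes. Some DEGs of the natural cycle had no call in the synchronised follicular ewes. Among them were PI16, at 1.20 (adjusted p = 0.184) in the synchronised follicular ewes and 3.15 (adjusted p = 0.000148) in the luteal ewes, MUC5AC, at -0.81 (adjusted p = 0.181) in the synchronised follicular ewes and -3.62 (adjusted p = 0.000653) in the luteal ewes, and BRINP3, at 0.17 (adjusted p = 0.838) in the synchronised follicular ewes and 1.52 (adjusted p = 0.0202) in the luteal ewes. Their interaction terms did not pass (adjusted p = 0.265, 0.275 and 0.11). In the synchronised ewes 15 of 27 interferon genes and 17 of 45 lysosomal genes were DEGs with lower expression, against the 44.9% of named genes, and 1 each in the natural cycle. Their median interaction was 0.34 and 0.31, with 0.16 over the named genes and 0.043 over all genes. None of the interferon genes and 1 of the lysosomal genes passed the interaction test.

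**Figure D5:**
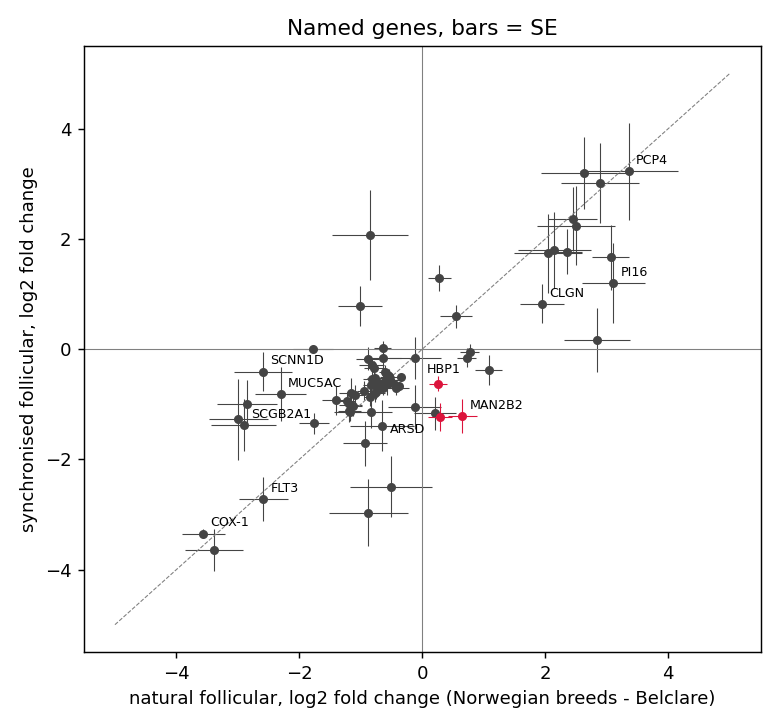
Log2 fold change of the Norwegian breeds against Belclare for the 81 genes chosen for description, 5 of them without a name, in natural (horizontal axis) and synchronised follicular ewes (vertical axis), with bars for the SE, a dashed line where both are equal, and genes that passed the interaction test in red. PCP4 is at 3.36 and 3.23, and MAN2B2, ARSD and HBP1 are above 0 in the natural and below 0 in the synchronised ewes.

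Tested directly, the breed difference itself differed between the natural and the synchronised follicular phase in 39 of 15113 genes (0.258%), 18 with a higher (0.119%) and 21 with a lower (0.139%) log2 fold change in the natural cycle, and 2356 genes had an unadjusted p under 0.05. DESeq2's Wald test called 146. The count moved from 4 without natural Belclare 9 to 370 without natural NWS 5. Without regard to fold, 43 genes passed (0.285%), and the 7 named among them all had a higher value in the natural cycle. Most names belong to genes that the study called lower in synchronised Fur than in Suffolk. Such a choice favours a higher value in the natural cycle, so this direction is not independent evidence. The median interaction was 0.16 over the named and 0.034 over the unnamed genes. MAN2B2 (ENSOARG00000010586), a lysosomal mannosidase, was different in the Norwegian breeds by a log2 fold change of 0.65 in the natural cycle (adjusted p = 0.0335) and of -1.21 in the synchronised one (adjusted p = 0.00273), an interaction of 1.86 ± 0.40, adjusted p = 0.0253. Its natural call was lost without Belclare 1, 6, 8 or 9 or Fur 1 (adjusted p up to 0.0676). In the natural cycle MAN2B2 was at 1.14 to 4.61 (median 2.45) CPM in Belclare, 1.82 to 6.36 (median 3.51) in Fur and 1.64 to 6.51 (median 3.79) in NWS, scaled over both phases, and in the synchronised cycle at 0.9004 to 7.78 (median 3.18), 0.401 to 2.84 (median 1.18) and 0.867 to 3.09 (median 1.58). For the sulphatase ARSD the interaction was 1.52 ± 0.33, adjusted p = 0.028, and the Norwegian medians of 23 and 31.6 CPM (Fur and NWS) in the natural cycle compared with 12.1 and 9.98 in the synchronised one, while Belclare had 20.6 and 24.2. The transcriptional repressor HBP1 (0.88 ± 0.20, adjusted p = 0.0343), the collagen-like anchor of acetylcholinesterase COLQ (1.78 ± 0.41, adjusted p = 0.0343), HRC (1.21 ± 0.28, adjusted p = 0.0343), the cell cycle inhibitor CDKN2D (0.998 ± 0.24, adjusted p = 0.0387) and the transcription factor KLF11 (1.43 ± 0.35, adjusted p = 0.0439) also had a higher value in the natural cycle. In these genes and ARSD the natural contrast did not pass and the synchronised one did. ARID3A, SCNN1D and SLC16A6 had the smallest p among named genes with a lower value in the natural cycle, and their interactions did not pass (adjusted p = 0.0865, 0.0994 and 0.101).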

How the data were processed

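The counts were made by the authors from TruSeq stranded mRNA libraries. Reads were trimmed and aligned to Oar_v3.1 with STAR (2.6.1b), uniquely mapped pairs were kept, and featureCounts of Subread (1.6.3) counted them on Ensembl genes. The deposited values are raw read counts for 27054 identifiers, without normalization, and whether counting used the strand is not given in the sources used here. Loss of pairs that map to several places or differ from the reference is therefore part of every value. No sequence or coordinates are given, since no genome of this build was used here.

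Genes with at least 1 CPM in at least 10 of the libraries fitted were kept. The 3 breeds were fitted together with edgeR (4.0.16, R 4.3.3), TMM factors and quasi-likelihood F tests, with Fur and NWS weighted equally. Benjamini-Hochberg adjustment covered all genes tested. DEGs were genes with a fold change above 1.5 besides an adjusted p under 0.05. SEs were obtained as the log2 fold change over the root of F. The interaction with cycle was fitted over the ewes of both follicular phases, and the contrast was repeated in synchronised ewes on the same genes. Log2 CPM used a prior count of 2. No 2 libraries of a breed agreed within counting noise (chi-square per degree of freedom at least 32.6 over 135 pairs), and 1 sample of the series with contradictory labels was left out. On simulated counts with these libraries, the test called 85% of genes changed 2-fold, 98% of those changed 4-fold and 4 of 14485 unchanged genes.

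Gene names were taken from the study's supplementary tables (1352 identifiers). The text names the 10 DEGs with a name that had the smallest p in either direction, the 2 unnamed identifiers of smallest p in each direction, named DEGs between NWS and Fur, the 3 named genes of smallest p in each direction of the interaction, the members of smallest p of each list (3 per list), the genes of 3 short tables of the study, PTGS1 and the mitochondrial genes. Some genes that meet this rule are not reported here. COLQ, CDKN2D, KLF11 and the unnamed genes between NWS and Fur were named after their values were seen. The members and lists were chosen with earlier results of these data known. Alternatives were DESeq2's (1.42.0) size factors and Wald test, other low-count limits, glmTreat or no fold threshold, only the groups compared, the replicate number as a block, a smooth muscle covariate and each ewe left out. Leaving out pairs or sets of libraries, the CDH1 covariate and the scaling over 30 ewes were chosen after seeing the data.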

Additional observations from a re-analysis of the deposited data

Results flagged for a closer look

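Within each breed of 10 ewes, the gap of the highest or lowest ewe to the next was compared with the whole range on log2 CPM (0.1 added), for 77 genes and 6 marker sums. Chance passes the limit of Dixon's test for 10 ewes in about 1 in 20 groups, and here 8.43% of 249 groups did, with 21 values in all. NWS 5 gave 12 of them. It was the highest NWS ewe for PCP4 (0.653) and the lowest for ADAM7 (0.510), CLCN3 (0.542), CRISPLD2 (0.512), IL17RA (0.521), LRP4 (0.597), MMP15 (0.634), MUC16 (0.505), PAX2 (0.671), SPTLC2 (0.509), TMEM173 (0.604) and TRANK1 (0.616), given as the share of the range taken by the gap. The ewe also had the highest muscle marker sum, and without it the calls of these 12 genes stayed.

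Belclare 1 was the highest Belclare ewe for CD177 (0.635), IFITM3 (0.511) and SCNN1D (0.482) and the lowest for the SAA1 identifier ENSOARG00000009865 (0.494). Belclare 9 was the highest for CUL4A (0.491). NWS 3 was the highest for FLT3 (0.519) and the lowest for the fibroblast marker sum (0.494), NWS 7 the highest for FOXC1 (0.645), and Fur 3 the lowest for PNCK (0.479).

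The breed difference between natural and synchronised follicular ewes itself differed, by edgeR's interaction test, for MAN2B2 (1.86 on the log2 scale), COLQ (1.78), ARSD (1.52), KLF11 (1.43), HRC (1.21), CDKN2D (0.998) and HBP1 (0.88). The effects of NWS and Fur against Belclare differed in COX-1, by 5.31 on the log2 scale.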

How the results depend on the processing

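Counts of DEGs for the Norwegian breeds, Fur and NWS against Belclare stayed within 1.5 times under other size factors, other low-count limits, DESeq2's Wald test, fits of the groups compared alone, the replicate block and the loss of any ewe. They were 463, 332 and 360 with glmTreat, and 5286, 4539 and 4214 without a fold threshold. The smooth muscle covariate gave 1183 for both Norwegian breeds and 183 for NWS. Between NWS and Fur the 7 DEGs became 22 without a low-count filter, 4 with at least 10 counts in every library, 43 with the Wald test, 2 with glmTreat and 3 with the replicate block, and 5 to 12 with each ewe left out. The 39 interaction DEGs became 146 with the Wald test, 1 with glmTreat and 1 with the replicate block, and 4 to 370 with each ewe left out. The cause of these changes was not tested.

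Whether replicate numbers do more than name the ewes is not given in the labels. The correlation of deviations between same-numbered ewes ran from -0.48 to 0.48 (median -0.073, above 0.1 in 7 of 30 pairs). Whether the numbers follow a shared factor such as a batch was not tested further. With the replicate block the Norwegian breeds had 2166 DEGs, Fur 2059 and NWS 2030, and the calls of ATP8A2, MAN2B2 and SLC16A6 were lost (adjusted p = 0.129, 0.067 and 0.158).

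Of 67 genes of the naming rule that passed, 5 of them without a name, 64 kept their call with each ewe left out in turn, 67 with the Wald test, 55 with the CDH1 covariate and 40 with the muscle covariate. Calls were lost for ATP8A2 without any 1 of 18 ewes (adjusted p up to 0.155, without Belclare 9), for MAN2B2 without Belclare 1, 6, 8 or 9 or Fur 1 (up to 0.0676) and for SLC16A6 (0.163 without Belclare 8 and 0.0969 without Belclare 9). Directions turned under the muscle covariate for ACTC1 (-0.050), ACTG2 (-0.17), MAN2B2 (-0.089), SCNN1D (0.10), AQP9 (1.44), CD177 (1.16), FOXC1 (0.99), LMAN1L (0.20), SERPINF2 (0.11) and TRPM1 (0.87), and under the CDH1 covariate for AQP9 (0.92). ACTG2 and DES make up the muscle covariate, so the loss of their calls under it, and the turn of ACTG2, were built in. FOXC1 also turned in the fit of the groups compared (0.15) and with the block (0.059), and TRPM1 with the block (0.12). With single ewes left out, AQP9 ran from -1.04 to 0.42, CD177 from -1.06 to 0.91, FOXC1 from -0.37 to 0.27 and LMAN1L from -0.28 to 0.34. Apart from ACTC1, ACTG2, MAN2B2 and SCNN1D, these genes had not passed the test. With CPM scaled over the 30 ewes alone, 29 genes had all Norwegian ewes above and 53 below Belclare. Genes near 0.169 CPM, such as PNCK in Belclare, are limited by depth.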

Other observations

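Several genes from the short tables of the study gave no call here. CCER2 (log2 fold change 0.28 ± 0.18, adjusted p = 0.239), EGFL6 (log2 fold change 0.21 ± 0.34, adjusted p = 0.661), LMAN1L (log2 fold change -0.13 ± 0.43, adjusted p = 0.846), SERPINF2 (log2 fold change -0.66 ± 0.52, adjusted p = 0.332), ST6GAL2 (log2 fold change -0.65 ± 0.30, adjusted p = 0.0872) and TRPM1 (log2 fold change -0.51 ± 0.66, adjusted p = 0.571) did not pass between the Norwegian breeds and Belclare in the natural cycle. CCER2 ranged from 2.103 to 6.59 CPM in Belclare with a median of 4.65, from 4.67 to 5.98 in Fur (median 5.27) and from 2.46 to 11.3 in NWS (median 5.22). In the synchronised follicular ewes CCER2 was at 1.29 (adjusted p = 0.000158) and TRPM1 at -2.49 (adjusted p = 0.00087), and the interaction did not pass in either (adjusted p = 0.101 and 0.288). ATP8A2, a phospholipid flippase, was lower by a log2 fold change of -0.93 ± 0.36, adjusted p = 0.0417, and its call depended on single ewes and was lost with the muscle level in the fit (adjusted p = 0.877). SLC16A6, a monocarboxylate transporter, had -1.02 ± 0.36, adjusted p = 0.0259, and ARID3A, a DNA-binding protein of B cell and embryonic lineages, -0.64 ± 0.14, adjusted p = 0.000564. With the muscle level neither of these 2 passed (adjusted p = 0.334 and 0.0647).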
